A study of Saccharomyces cerevisiae with 12 samples.

Results

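The comparison described here asks, gene by gene, whether a point mutation of SDC1 and the deletion of JHD2 act independently on RNA levels in budding yeast, Saccharomyces cerevisiae. Of the 12 libraries of the series, 8 form a 2 by 2 design with 2 libraries a group. These are a strain with both changes (Sdc1_mut + Jhd2_KO, called the double mutant), a strain with a point mutation in SDC1 and intact JHD2 (Sdc1_mut), a strain in which JHD2 was deleted (Jhd2_KO) and the wild type (WT). The other 4 libraries, 2 of a strain without SDC1 (Sdc1_KO) and 2 of a strain lacking the DPY30 motif of Sdc1 (Dpy30_KO), are not compared here but entered the fit, where they add to the estimate of the spread. All groups are of the strain MGD353-13D and were harvested in mid-log phase from YPD, a rich glucose medium. Ribosomal RNA was removed from total RNA before libraries were made with a kit that marks the strand. The labels do not give the substitution in Sdc1 or the marker that replaced JHD2, and they do not say that a group's libraries are separate cultures; p-values therefore measure only the spread between these libraries. Of 7126 gene identifiers in the deposited table, 7112 had a usable fragment count and entered the comparison, and 6361 of those passed a filter on low counts and were tested.

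Set1 is the catalytic subunit of the yeast complex, also called COMPASS, that methylates lysine 4 of histone H3. Sdc1 is a small subunit of that complex; it carries a DPY30 motif, through which such proteins pair with each other and dock onto Bre2, and its loss lowers the higher methylation states. Jhd2 is a demethylase of the JmjC family that removes methyl groups from the same lysine, so the point mutation touches the writing of the mark and the deletion touches its removal.

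The interaction is the log2 difference between the double mutant and Sdc1_mut, minus the log2 difference between Jhd2_KO and WT. It is 0 where both changes add up on the log2 scale, positive where RNA in the double mutant lies above that additive expectation and negative where it lies below. Each value is given with its standard error (SE), and levels are in CPM, the fragments of a gene scaled to the same total in every library. A gene is said to be called where edgeR's quasi-likelihood test gave a Benjamini-Hochberg adjusted p under 0.05 over all 6361 genes.

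The 8 libraries held between 8652878 and 26041718 fragments on genes, with WT the deepest group. JHD2 had 0 fragments in every library of the double mutant and of Jhd2_KO, which allows at most 0.213, 0.214, 0.347 and 0.249 CPM in these 4 libraries by counting error, against 13.0 and 14.2 CPM in Sdc1_mut and 6.27 and 4.36 CPM in WT. The deletion is therefore seen in the libraries labelled with it, and no interaction can be read for JHD2 itself. SDC1 had 46.0 and 44.8 CPM in the double mutant, 38.5 and 39.2 CPM in Sdc1_mut, 21.2 and 24.2 CPM in Jhd2_KO and 24.3 and 25.5 CPM in WT. Gene counts cannot show the point mutation. RNA encoded by the mitochondrial genome was almost absent from the double mutant (9 and 16 fragments) and from Sdc1_mut (9 and 2 fragments), against 29213 and 37870 fragments in Jhd2_KO and 35130 and 62790 in WT. The backgrounds in which JHD2 was deleted thus differed in the point mutation and in mitochondrial RNA together, and these cannot be told apart in any interaction below.

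The JHD2 difference in the point mutant departed from that in the wild type at 1297 of the 6361 genes tested, 20.4%. The double mutant lay above the additive expectation at 534 genes (8.39%) and below it at 763 (12%). This lean towards lower calls varied with the scaling. The split was 592 above and 620 below with RLE scaling, 601 and 660 with DESeq2, and 648 and 645 with trends of level on gene length removed, a setting chosen after seeing the data. With the 8 libraries of the 2 by 2 design alone, 2130 genes were called, 899 above and 1231 below. The lower and upper quartiles of the interaction were -0.35 and 0.28, around a median of -0.04, and the median SE was 0.18. At 203 of the 534 and 87 of the 763 the departure was at least 2-fold. All 1297 called genes kept their sign in each of the 16 ways to take 1 library from each of the 4 groups. These combinations reuse the libraries that gave the calls, so a kept sign is no separate support. Genes that were not called could keep theirs too, as ADE2 did (adjusted p 0.74). The count fell to 634 without WT replicate 1, 785 and 617 without Sdc1_mut replicate 1 or 2, 580 without Jhd2_KO replicate 2, and 829 and 838 without double-mutant replicate 1 or 2; no gene shared with the full count turned its direction in any of these.

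Deleting JHD2 changed RNA levels at 2069 genes in the point mutant (32.5%; 838 higher and 1231 lower), and at 104 genes in the wild type (1.63%; 48 higher and 56 lower). The second count is the less firm. It was 26 and 15 without WT replicate 1 or 2, 50 without either Sdc1_mut replicate, 5 and 11 without Jhd2_KO replicate 1 or 2, 48 and 49 without double-mutant replicate 1 or 2, and rose to 273 by DESeq2 and 689 with the 8 libraries alone. The first fell to 1326 and 1100 without Sdc1_mut replicate 1 or 2 and to 1296 without double-mutant replicate 1. Of the 1297 interaction genes, the JHD2 difference was called in the point mutant only at 1100 (84.8%), in the wild type only at 30, in both with opposite directions at 12, in both with the same direction at 3, and in neither at 152. Those 1100 became 574 without WT replicate 1, 660 and 504 without Sdc1_mut replicate 1 or 2, 529 without Jhd2_KO replicate 2, and 685 and 697 without double-mutant replicate 1 or 2. These contrasts share libraries, so the classes describe the called genes and add no evidence of their own. At an unadjusted p under 0.05 in edgeR's test, 2757 genes differed in the point mutant and 1078 in the wild type. Adjustment was made within each contrast, so a call in the wild type needed a smaller p. A difference not called there is not shown to be absent.

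**Figure D1:**
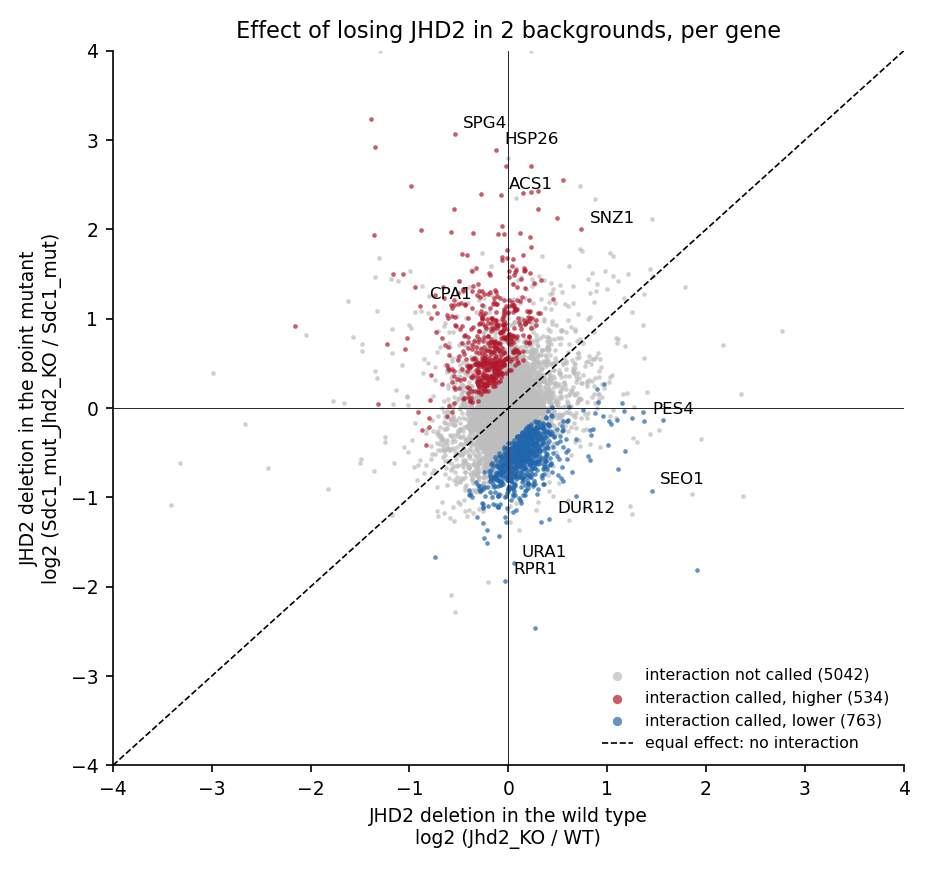
Log2 difference made by deleting JHD2 in the point mutant (vertical axis, Sdc1_mut_Jhd2_KO over Sdc1_mut) against the same in the wild type (horizontal axis, Jhd2_KO over WT), for 6339 nuclear genes with JHD2 left out; 2 genes beyond the axes are drawn at the edge. Red points are the 534 genes called above and blue points the 763 called below the additive expectation, and they spread along the vertical axis more than along the horizontal one, on either side of the dashed line of equal effects.

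Among the 534 genes above expectation, the median JHD2 difference was 0.69 on the log2 scale in the point mutant and -0.17 in the wild type, and it was positive at 527 and 104 of them. Among the 763 below, the medians were -0.53 in the point mutant and 0.15 in the wild type, with 6 and 600 positive. Genes were chosen on the gap between these differences, which by itself favours opposite signs. The medians and signs are therefore no separate evidence of an effect in the wild type. Against WT, 3768 genes differed in the double mutant (59.2%; 29.1% higher and 30.1% lower) and 3342 in Sdc1_mut (52.5%; 27.9% higher and 24.7% lower), and the double mutant differed from Jhd2_KO at 3716 (58.4%; 28.6% higher and 29.8% lower). Set against WT, the interaction genes fell into several positions. At 434 (33.5%) the double mutant differed from WT and Sdc1_mut did not. At 290 (22.4%) Sdc1_mut differed from WT and the double mutant did not. At 254 (19.6%) the interaction had the same direction as the change called in Sdc1_mut. At 141 (10.9%) Sdc1_mut and the double mutant changed the same way, and the interaction ran against that change. At 76 (5.86%) Sdc1_mut and the double mutant changed in opposite directions, and at 102 (7.86%) neither was called against WT. These positions go by calls and signs, not by distance from WT.

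Among the 15 largest positive interactions of genes averaging at least 5 CPM, both double-mutant libraries lay above all 6 others in 15 of 15 genes. The JHD2 difference was called in the point mutant for all 15. The genes were ranked on these same values, so the selection itself favours this pattern. In the wild type edgeR called 0 of the 15 (4 at an unadjusted p under 0.05), DESeq2 1 and limma-trend 0. SPG4 (YMR107W, chromosome XIII, 483014 to 483361), needed for survival at high temperature in stationary phase, had 112 and 184 CPM in the double mutant, 21.5 and 14.1 in Sdc1_mut, 8.78 and 9.86 in Jhd2_KO and 13.6 and 13.7 in WT. Its double-mutant mean was 12.2 times the additive expectation of 12.2 CPM (interaction 3.61 ± 0.48, adjusted p 0.00066). HSP26 (YBR072W, chromosome II, 382030 to 382674), a small heat shock protein that binds unfolded proteins, had 568 and 793 CPM in the double mutant, 106 and 78.3 in Sdc1_mut, 132 and 115.5 in Jhd2_KO and 129 and 141 in WT. The libraries of the other 3 groups thus lay between 78.3 and 141 CPM, while the double mutant was 8.09 times the expectation (3.02 ± 0.43, adjusted p 0.00092). HSP30 (YCR021C, chromosome III, 156109 to 157107), a plasma membrane protein that restrains the proton pump Pma1, had 673 and 819 CPM in the double mutant, 212 and 177 in Sdc1_mut, 49.9 and 68.3 in Jhd2_KO and 132 and 173 in WT. Its Jhd2_KO libraries were the lowest of the 8 and its double-mutant libraries the highest (3.30 ± 0.68, adjusted p 0.0064).

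Some of the same 15 act on acetate and other monocarboxylates. Of the 29 genes listed as gluconeogenic, glyoxylate cycle or glucose-repressed, 8 were called above and 3 below, with a median interaction of 0.24. Those shares were 27.6% and 10.3%, against 8.39% and 12% of all genes. The 8 became 3 without WT replicate 1, Sdc1_mut replicate 2, Jhd2_KO replicate 2 or double-mutant replicate 2, 4 without Jhd2_KO replicate 1 and 5 without WT replicate 2. ACS1 (YAL054C, chromosome I, 42881 to 45022), an acetyl-CoA synthetase, had 120 and 172 CPM in the double mutant, 33.4 and 22.7 in Sdc1_mut, 20.6 and 24.5 in Jhd2_KO and 25.5 and 22.2 in WT (interaction 2.46 ± 0.29, adjusted p 0.00037). The other 3 groups overlapped each other and lay well below the lower double-mutant library. ATO2 (YNR002C, chromosome XIV, 633008 to 633856), of the acetate and ammonium transporter family, had 95.3 and 131 CPM in the double mutant, 22.9 and 20.3 in Sdc1_mut, 36.3 and 34.0 in Jhd2_KO and 46.6 and 38.4 in WT (2.67 ± 0.24, adjusted p 8.2e-05). Here the point mutation alone went with less RNA than in WT and the double mutant with more. ADY2, the acetate transporter of that family, had an interaction of 2.19 and MPC3, a subunit of the mitochondrial pyruvate carrier, 2.19. SLZ1, a partner of the RNA methyltransferase Ime4, had 42.8 and 78.1 CPM in the double mutant, 10.5 and 8.05 in Sdc1_mut, 8.32 and 9.69 in Jhd2_KO and 9.69 and 8.75 in WT (2.74 ± 0.37). The rest of the 15 were YER137W-A (3.47, an identifier without a match in the annotation used), YER137C (2.79), the subtelomeric COS10 (2.67), YHR033W (2.48), YRO2 (2.32), the cell wall protein gene SPI1 (2.26) and the autophagy gene ATG41 (2.14). Each of the 15 stayed called in every alternative run.

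**Figure D2:**
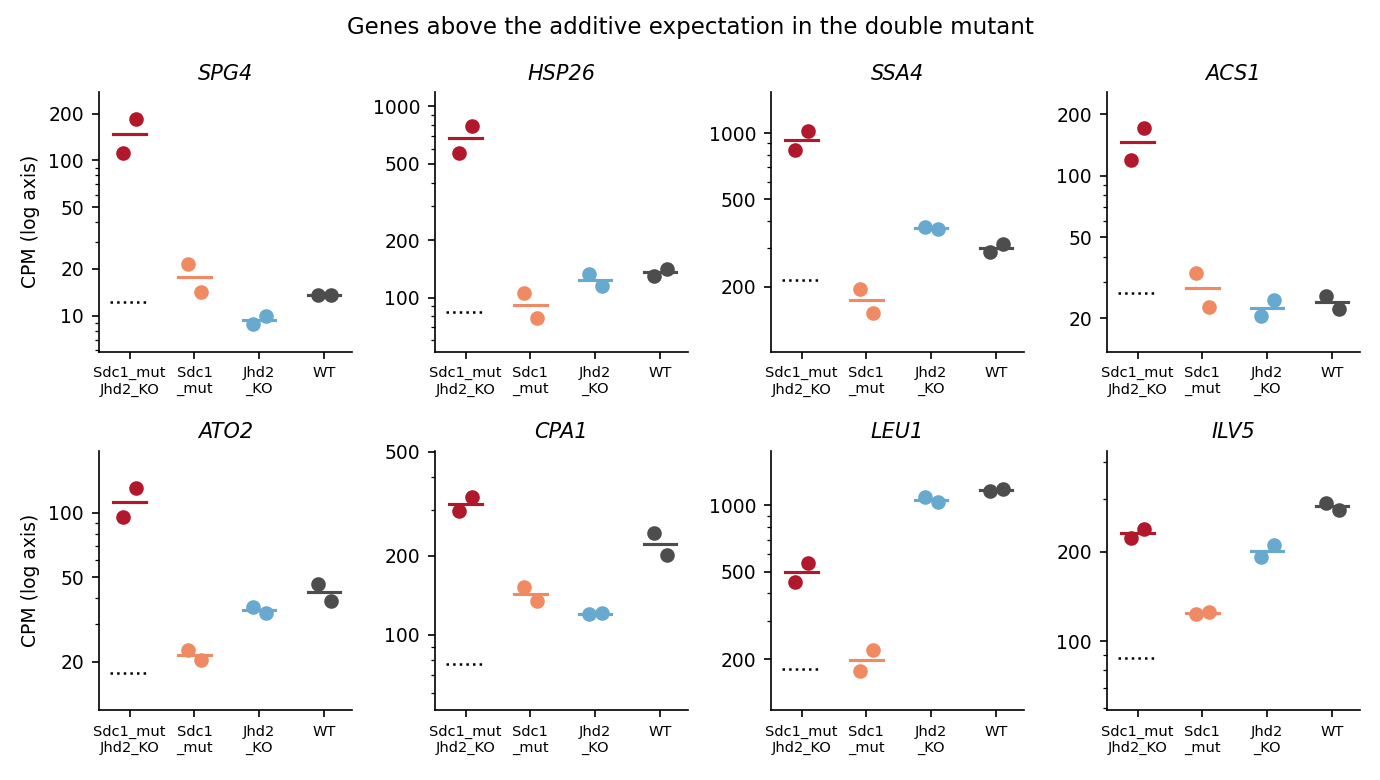
CPM on a log axis in each library of the double mutant, Sdc1_mut, Jhd2_KO and WT for 8 genes above the additive expectation; points are libraries, bars are means of 2 libraries, and the dotted line is the additive expectation. Double-mutant libraries of SPG4, HSP26, SSA4, ACS1, ATO2 and CPA1 lie above the other 6, whereas those of LEU1 and ILV5 lie between Sdc1_mut and WT.

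Molecular chaperones of the heat shock response lay above expectation more often than below it. Of 25 heat shock chaperone genes tested, 13 were called above and 1 below, against 8.39% and 12% of all genes, and the median interaction was 0.91 (median of all genes -0.04). The median JHD2 difference of the list was 0.97 in the point mutant and 0.15 in the wild type. As the median over the list relative to the WT mean, levels were 0.46 and 0.62 on the log2 scale in the double mutant, -0.34 and -0.37 in Sdc1_mut and 0.10 and 0.21 in Jhd2_KO, with the WT libraries at -0.05 and 0.05. By this median Sdc1_mut was the lowest group and the double mutant the highest. SSA4 (YER103W, chromosome V, 364589 to 366517), the most stress-inducible cytosolic Hsp70, had 842 and 1027 CPM in the double mutant, 194 and 152 in Sdc1_mut, 374 and 366 in Jhd2_KO and 287 and 313 in WT (interaction 2.13 ± 0.38, adjusted p 0.0031). SSE2, an Hsp70 nucleotide exchange factor, had 757 and 802 CPM in the double mutant, 227 and 186 in Sdc1_mut, 364 and 351 in Jhd2_KO and 308 and 309 in WT (1.70 ± 0.19). Next came the small heat shock protein gene HSP42 (1.69 ± 0.32) and the Hsp90 gene HSP82 (1.57 ± 0.33). All 4 lay below WT in Sdc1_mut and above WT in the double mutant. The member called below was SSB1, a ribosome-bound Hsp70 that is made with ribosomal proteins rather than upon heat shock.

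Heat shock factor Hsf1 binds repeats of GAA in alternate orientation, and the stretch upstream of HSP42 shows such a site. Windows from 350 to 51 bases before the start codon, of 300 bases, were searched on both strands of the reference genome (RefSeq, build R64) for GAANNTTCNNGAA or TTCNNGAANNTTC. A match stood in 13 of the 25 chaperone windows (52%), in 2.94% of windows of genes above expectation, in 1.08% of those below and in 1.01% of all 5758 windows. HSP42, of the called chaperone genes the largest in interaction whose window holds a match, is shown with its 2 overlapping matches in capitals (chrIV:806271-806570, plus strand):
HSP42: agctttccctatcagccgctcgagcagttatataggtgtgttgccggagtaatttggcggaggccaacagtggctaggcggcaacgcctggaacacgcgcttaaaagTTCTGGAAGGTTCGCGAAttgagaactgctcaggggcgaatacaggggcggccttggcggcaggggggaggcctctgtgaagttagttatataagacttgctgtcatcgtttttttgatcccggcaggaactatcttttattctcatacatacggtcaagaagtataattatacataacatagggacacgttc
The window comes from the reference, not from the strain, and a match is not a measured binding site. The stress element AGGGG, bound by Msn2 and Msn4, stood in 35.5% of windows above expectation, 19.7% of those below and 23.1% of all. In the environmental stress response list, 18 of 48 genes were called above and 4 below, with a median of 0.39, and AGGGG stood in 40 of 48 windows. The shares called were 37.5% above and 8.33% below, against 8.39% and 12% of all genes. The list median over WT was -0.51 in Sdc1_mut and -0.06 in the double mutant. As a list these genes thus lay near WT in the double mutant and below it in Sdc1_mut. DDR2, a stress-induced gene of unknown biochemical role, had an interaction of 1.68. The 18 became 11 without WT replicate 1, 10 without Sdc1_mut replicate 2, 10 without Jhd2_KO replicate 2 and 11 without double-mutant replicate 2.

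Genes for the synthesis of leucine, isoleucine and valine had their lowest list median in Sdc1_mut, and that of the double mutant lay between Sdc1_mut and WT. Of 13 branched-chain amino acid genes tested, 10 were called above expectation and 1 below (76.9% and 7.69%, against 8.39% and 12% of all genes). The median interaction was 1.02. The list median relative to WT was -1.004 and -0.79 in the double mutant, -1.72 and -1.45 in Sdc1_mut, -0.29 and -0.18 in Jhd2_KO and -0.03 and 0.03 in the WT libraries. The 4 groups did not overlap. LEU1 (YGL009C, chromosome VII, 476313 to 478652), isopropylmalate isomerase, had 448 and 546 CPM in the double mutant, 177 and 220 in Sdc1_mut, 1094 and 1034 in Jhd2_KO and 1157 and 1184 in WT. Deleting JHD2 raised it by 1.32 in the point mutant, whereas the difference in the wild type was -0.14 with an adjusted p of 0.67 (interaction 1.46 ± 0.20, adjusted p 0.00083). ILV5, the reductoisomerase of the shared pathway, had 222 and 237 CPM in the double mutant, 123 and 125 in Sdc1_mut, 192 and 211 in Jhd2_KO and 291 and 276 in WT (1.38 ± 0.17, adjusted p 0.0004). ILV2, acetolactate synthase, had an interaction of 1.42 ± 0.21. LEU2, isopropylmalate dehydrogenase and a common selection marker, had 66.96 and 85.5 CPM in the double mutant, 30.4 and 30.0 in Sdc1_mut, 148 and 157 in Jhd2_KO and 227 and 192 in WT (1.80 ± 0.19). The member called below was BAT2, the cytosolic branched-chain aminotransferase. Leu3 activates this pathway through CCGGNNCCGG, found in 3 of the 13 windows, 0.784% of windows above expectation, 0.135% of those below and 0.139% of all. LEU1, shown because it has the largest interaction of the list after LEU2 and its window holds the match, has it in capitals (chrVII:478703-479002, minus strand):
LEU1: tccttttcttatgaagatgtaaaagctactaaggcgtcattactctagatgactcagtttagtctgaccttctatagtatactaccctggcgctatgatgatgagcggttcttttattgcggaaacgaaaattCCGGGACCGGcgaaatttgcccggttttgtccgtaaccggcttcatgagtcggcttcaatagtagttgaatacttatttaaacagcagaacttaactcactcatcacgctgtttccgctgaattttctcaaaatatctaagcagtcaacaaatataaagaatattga

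Other amino acid pathways under Gcn4, the activator of amino acid starvation genes, had positive interactions too, with a Sdc1_mut level near WT. Of 49 genes, 19 were called above and 3 below (38.8% and 6.12%, against 8.39% and 12% of all genes), with a median of 0.32. Their list median relative to WT was 0.34 and 0.39 in the double mutant, -0.12 and -0.02 in Sdc1_mut, 0.02 and 0.06 in Jhd2_KO and -0.02 and 0.02 in the WT libraries. By this measure only the double mutant stood apart. CPA1 (YOR303W, chromosome XV, 882899 to 884134), the small subunit of carbamoyl phosphate synthetase for arginine, had 297 and 337 CPM in the double mutant, 152 and 135 in Sdc1_mut, 120 and 121 in Jhd2_KO and 244 and 201 in WT. Each single change lowered it and their combination raised it above WT: the JHD2 difference was 1.15 in the point mutant and -0.89 in the wild type, both called (interaction 2.04 ± 0.17, adjusted p 8.2e-05). ARG4, argininosuccinate lyase, had 217 and 247 CPM in the double mutant, 128 and 118 in Sdc1_mut, 148 and 169 in Jhd2_KO and 216 and 225 in WT (1.39 ± 0.17). The Gcn4 site TGACTC stood in 32 of 49 windows of this list, in 10 of 13 branched-chain windows, in 16.9% of windows above expectation, 5.79% of those below and 8.27% of all.

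Pyrimidine synthesis ran the other way, with its highest list median in Sdc1_mut. Of 12 genes tested, 6 were called below expectation and 1 above (50% and 8.33%, against 12% and 8.39% of all genes). The median was -0.54. The list median relative to WT was 0.51 and 0.49 in the double mutant, 1.08 and 1.05 in Sdc1_mut, -0.06 and -0.09 in Jhd2_KO and -0.05 and 0.05 in the WT libraries. URA1 (YKL216W, chromosome XI, 25215 to 26159), dihydroorotate dehydrogenase, had 230 and 290 CPM in the double mutant, 852 and 882 in Sdc1_mut, 286 and 263 in Jhd2_KO and 241 and 288 in WT. Only Sdc1_mut stood apart, and the double mutant overlapped both Jhd2_KO and WT (interaction -1.79 ± 0.18, adjusted p 0.00011). URA4, dihydroorotase, had 122 and 129 CPM in the double mutant, 343 and 347 in Sdc1_mut, 136 and 123 in Jhd2_KO and 148 and 159 in WT (-1.21 ± 0.14, adjusted p 0.00037). URA7, a CTP synthase, had 45.9 and 52.0 CPM in the double mutant, 153 and 158 in Sdc1_mut, 26.4 and 30.9 in Jhd2_KO and 43.4 and 52.9 in WT. The JHD2 difference of URA7 was called in both backgrounds, at -1.67 in the point mutant and -0.74 in the wild type (-0.93 ± 0.18). FUR1, the uracil salvage enzyme, had an interaction of -0.86. Ppr1, the activator of several of these genes, binds CGGNNNNNNCCG, which stood in 3 of 12 windows, in 2.35% of windows above expectation, 3.23% of those below and 1.74% of all. URA1 is shown as the largest interaction of the list, with 2 matches in capitals (chrXI:24865-25164, plus strand):
URA1: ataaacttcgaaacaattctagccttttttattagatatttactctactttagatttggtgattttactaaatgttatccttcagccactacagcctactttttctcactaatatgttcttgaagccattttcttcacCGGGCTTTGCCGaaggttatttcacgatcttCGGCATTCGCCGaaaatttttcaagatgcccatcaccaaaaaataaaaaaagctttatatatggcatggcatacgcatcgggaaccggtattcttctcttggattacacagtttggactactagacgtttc

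The 15 largest negative interactions, ranked in the same way on the values described, were less uniform than the positive ones. Both double-mutant libraries lay below the other 6 in 6 of 15, both Sdc1_mut libraries above the other 6 in 6, and both Jhd2_KO libraries above the other 6 in 4; the JHD2 difference was called in the point mutant for 8 and in the wild type for 5. Genes repressed by good nitrogen sources had calls in both directions, 7 of 31 above and 4 below, with a median of 0.16. Those shares were 22.6% and 12.9%, against 8.39% and 12% of all genes, so the share below was near that of all genes. The 7 became 1 without WT replicate 1 or Jhd2_KO replicate 2, 2 without either Sdc1_mut replicate or double-mutant replicate 2, and 4 without Jhd2_KO replicate 1 or double-mutant replicate 1. Among the members below, DUR12, urea amidolyase, had 219 and 199 CPM in the double mutant, 499 and 490 in Sdc1_mut, 257 and 284 in Jhd2_KO and 215 and 192 in WT (-1.66 ± 0.19, adjusted p 0.00027). Sdc1_mut lay above the other 3 groups. GAP1, the general amino acid permease, had 34.9 and 33.8 CPM in the double mutant, 82.2 and 83.8 in Sdc1_mut, 60.1 and 52.4 in Jhd2_KO and 46.0 and 43.5 in WT (-1.60 ± 0.28, adjusted p 0.0025). Its double-mutant libraries lay below all others. RPR1, the RNA subunit of RNase P, was lowest in the double mutant, with 19.2 and 16.1 CPM, against 73.0 and 62.1 in Sdc1_mut, 126 and 133 in Jhd2_KO and 131 and 135 in WT (-1.90 ± 0.17, adjusted p 8.2e-05). YIR042C, a gene of unknown function, had 1.99 and 1.78 CPM in the double mutant, 8.18 and 12.5 in Sdc1_mut, 15.6 and 13.4 in Jhd2_KO and 10.99 and 12.9 in WT (-2.74 ± 0.75, adjusted p 0.023). That call was lost without WT replicate 1, Sdc1_mut replicate 2, either Jhd2_KO replicate or either double-mutant replicate, with adjusted p up to 0.102. HXT11, a hexose transporter gene with near-identical copies HXT9 and HXT12 among which reads may be split, had -1.41 and lost its call without WT replicate 2, either Sdc1_mut replicate, Jhd2_KO replicate 2 or double-mutant replicate 2, with adjusted p up to 0.0976. MRPL50, of the mitochondrial ribosome, had -1.37.

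**Figure D3:**
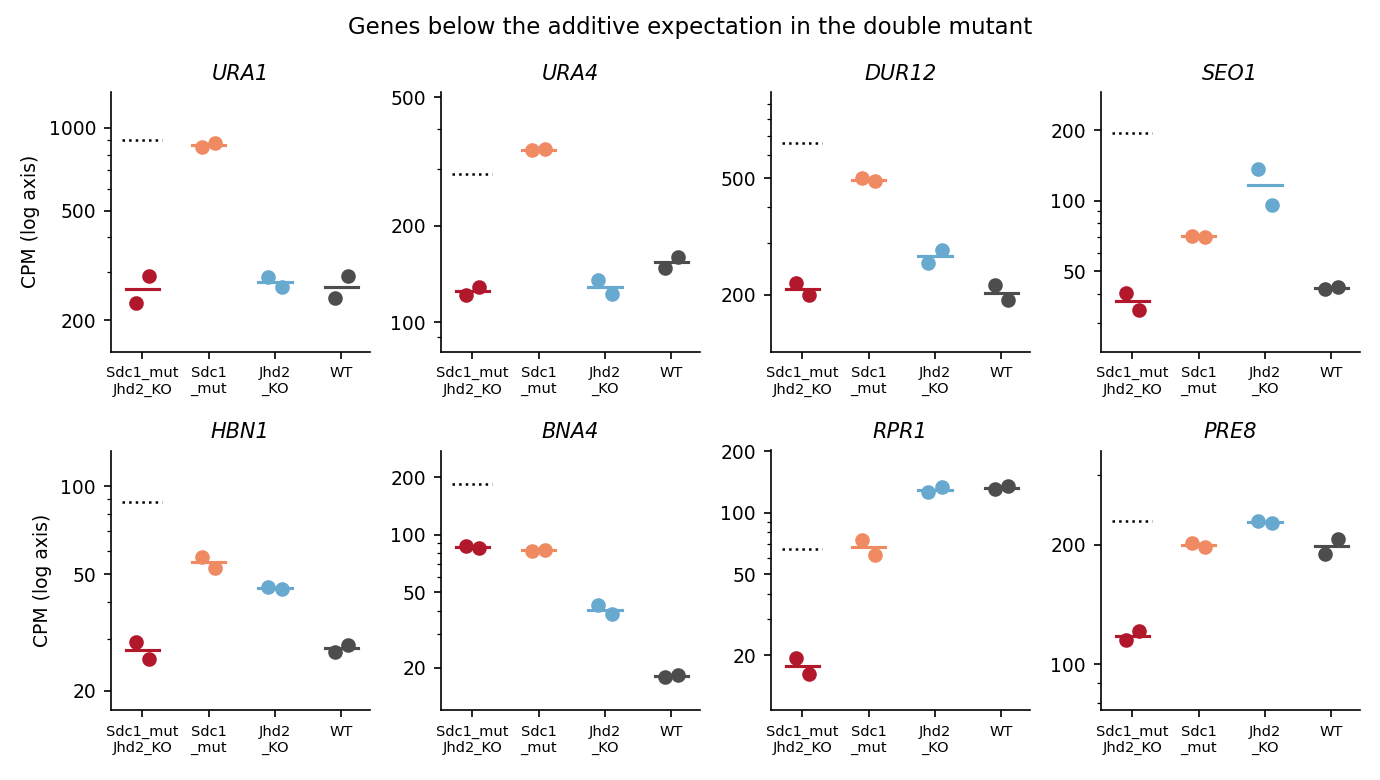
CPM on a log axis in each library of the double mutant, Sdc1_mut, Jhd2_KO and WT for 8 genes below the additive expectation, drawn as in the plot of genes above it. Sdc1_mut stands highest for URA1, URA4, DUR12 and HBN1, Jhd2_KO for SEO1, and the double mutant lowest for RPR1 and PRE8; BNA4 is at about the same level in the double mutant and Sdc1_mut.

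Another set had a positive JHD2 difference in the wild type and a negative or small one in the point mutant. SEO1 (YAL067C, chromosome I, 7235 to 9016), a putative permease of the allantoate family, had 40.3 and 34.2 CPM in the double mutant, 71.0 and 70.4 in Sdc1_mut, 137 and 96.2 in Jhd2_KO and 41.9 and 43.1 in WT. Each single mutant lay above WT, and the double mutant lay below WT by less than the test could call (adjusted p 0.30): the JHD2 difference was -0.93 in the point mutant and 1.45 in the wild type, both called (-2.38 ± 0.22, adjusted p 8.2e-05). HBN1, a putative nitroreductase, behaved likewise, with 29.4 and 25.7 CPM in the double mutant, 57.1 and 52.5 in Sdc1_mut, 45.3 and 44.6 in Jhd2_KO and 27.2 and 28.7 in WT (-1.68 ± 0.17). In BNA4, kynurenine monooxygenase of NAD synthesis, the JHD2 difference was 0.06 in the point mutant with an adjusted p of 0.63 and 1.15 in the wild type with one of 0.00024, at 87.2 and 85.6 CPM in the double mutant, 82.5 and 83.1 in Sdc1_mut, 42.8 and 38.2 in Jhd2_KO and 18.0 and 18.3 in WT (-1.09 ± 0.13). In PES4 (-1.52), an RNA-binding protein gene, and LOH1 (-1.41) the double mutant and Sdc1_mut overlapped, and both lay above Jhd2_KO, which lay above WT. PES4 had 13.2 and 10.8 CPM in the double mutant, 14.4 and 12.2 in Sdc1_mut, 4.39 and 4.22 in Jhd2_KO and 1.75 and 1.55 in WT. For the chitin deacetylase gene CDA1 (-1.66) and the a-factor receptor gene STE3 (-1.70), at 1.37 to 12.1 CPM, the double mutant and Sdc1_mut again lay above Jhd2_KO. Jhd2_KO lay above WT. In CDA1, however, the double mutant (9.09 and 7.99 CPM) did not overlap Sdc1_mut (12.1 and 11.8). The JHD2 differences in the wild type were 1.18 for CDA1 (adjusted p 0.065, not called) and 1.56 for STE3 (adjusted p 0.046). CDA2, the other chitin deacetylase gene, was called above expectation (3.075, adjusted p 0.012). It averaged under 5 CPM, so it was not ranked, and its call was lost without WT replicate 1 or Jhd2_KO replicate 2. CDA1 lost its call without Jhd2_KO replicate 2 (adjusted p 0.0816), and STE3 without WT replicate 1, Sdc1_mut replicate 1, Jhd2_KO replicate 1 or double-mutant replicate 2 (up to 0.109).

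Sulfur assimilation belonged to that pattern as a list. The median JHD2 difference of 30 methionine and sulfur genes was 0.11 in the point mutant and 0.51 in the wild type. Their median interaction was -0.46, with 8 called below and 2 above (26.7% and 6.67%, against 12% and 8.39% of all genes). The list median relative to WT was 0.07 and -0.09 in the double mutant, 0.02 and 0.09 in Sdc1_mut, 0.65 and 0.37 in Jhd2_KO and 0.03 and -0.03 in the WT libraries. MET3, ATP sulfurylase, had 93.9 and 87.1 CPM in the double mutant, 144 and 146 in Sdc1_mut, 321 and 285 in Jhd2_KO and 134 and 147 in WT (-1.79 ± 0.37, adjusted p 0.0064). MET14, the adenylylsulfate kinase of the next step, had 80.4 and 85.5 CPM in the double mutant, 106 and 115.3 in Sdc1_mut, 213 and 194 in Jhd2_KO and 85.9 and 117 in WT (-1.42 ± 0.35, adjusted p 0.015). In both genes Jhd2_KO was the highest group of the 4, though the JHD2 difference in the wild type alone missed the threshold, with adjusted p of 0.054 for MET3 and 0.063 for MET14. Libraries of 1 group could differ about as much. Those of Sdc1_KO, outside this comparison, had 302 and 132 CPM of MET3 and 271 and 130 of MET14. CYS4, cystathionine beta-synthase, had an interaction of -1.09 ± 0.15. The MET14 call was lost without WT replicate 1, Sdc1_mut replicate 2 or double-mutant replicate 1, with adjusted p up to 0.0736. Cbf1, with Met4, acts through TCACGTG, which stood in 13 of the 30 windows, 2.75% of windows above expectation, 2.83% of those below and 2.94% of all. MET14, of the called genes of the list the largest in interaction with a match, is shown with it in capitals (chrXI:439436-439735, minus strand); the palindrome is counted on both strands, and the MET3 window holds none:
MET14: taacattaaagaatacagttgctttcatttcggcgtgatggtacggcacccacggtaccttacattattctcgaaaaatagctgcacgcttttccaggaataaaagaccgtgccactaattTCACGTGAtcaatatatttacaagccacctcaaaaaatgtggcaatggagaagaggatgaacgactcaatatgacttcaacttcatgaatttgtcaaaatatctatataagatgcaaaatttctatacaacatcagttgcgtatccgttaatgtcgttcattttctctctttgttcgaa
TGTGGC, the site of Met31 and Met32, stood in 18 of the 30 windows and 8.77% of all. No printed match overlapped one of another motif searched.

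**Figure D4:**
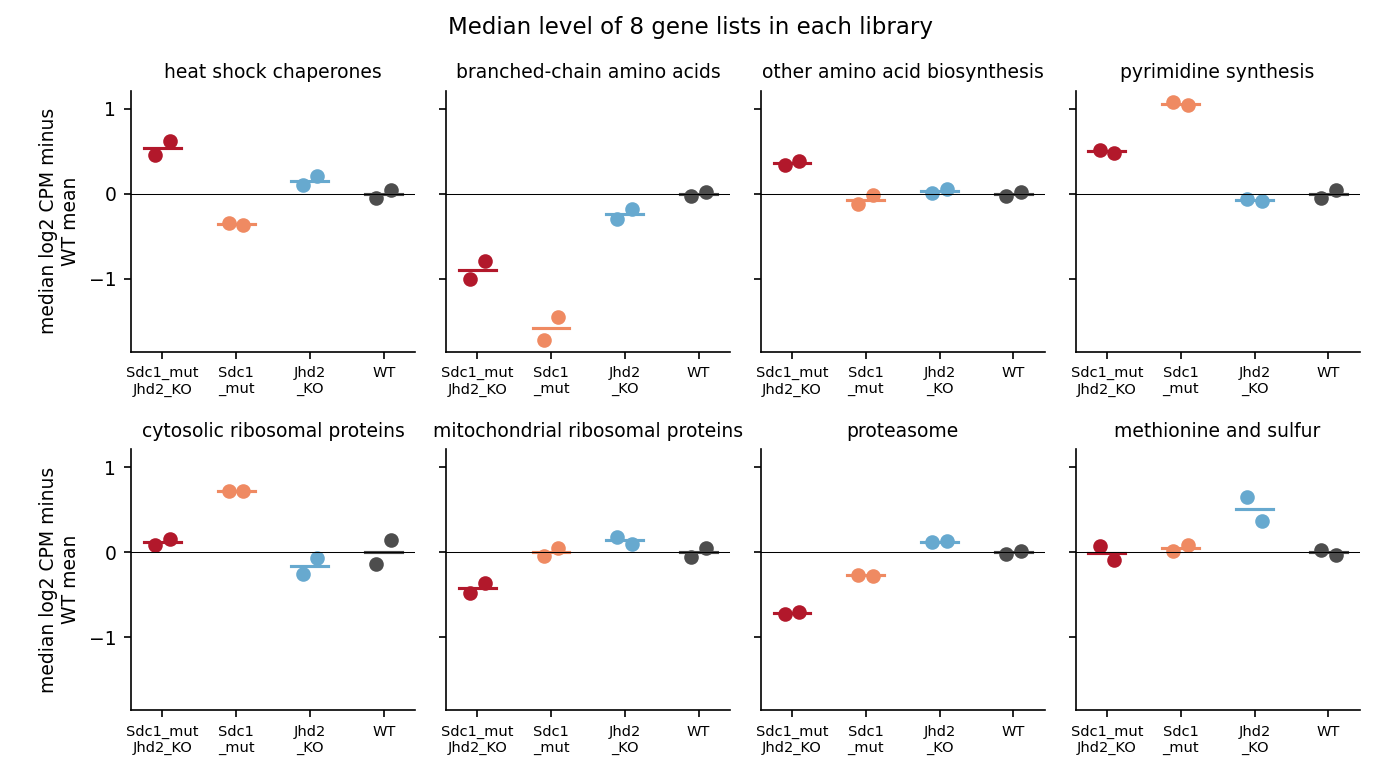
Median log2 CPM of 8 gene lists in each library, relative to the WT mean of each gene, for the double mutant, Sdc1_mut, Jhd2_KO and WT; points are libraries and bars are means of 2 libraries. The double mutant is the highest group for heat shock chaperones and other amino acid biosynthesis and the lowest for the mitochondrial ribosome and the proteasome, Sdc1_mut is highest for pyrimidine synthesis and cytosolic ribosomal proteins, and Jhd2_KO is highest for methionine and sulfur.

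Protein synthesis and turnover genes lay below expectation as broad, shallow shifts. Of 135 cytosolic ribosomal protein genes, edgeR called 42 below (31.1%, against 12% of all genes) and 0 above (2 above at an unadjusted p under 0.05, 1 by DESeq2 and 0 by limma-trend). Of the 135, 125 had a negative interaction, and the list median was -0.49. The JHD2 difference was called lower at 111 of them in the point mutant, where 19.4% of all genes were lower, and at 1 in the wild type, where 0.88% were. List medians relative to WT were 0.09 and 0.16 in the double mutant, 0.72 and 0.73 in Sdc1_mut, -0.26 and -0.06 in Jhd2_KO and -0.14 and 0.14 in the WT libraries. By this measure the double mutant lay nearer to WT than Sdc1_mut did. RPS0B, of the small subunit, had 499 and 484 CPM in the double mutant, 995 and 1053 in Sdc1_mut, 417 and 572 in Jhd2_KO and 400 and 503 in WT (-1.19 ± 0.21, adjusted p 0.0031). Many of these genes are near-identical pairs whose reads may be split; 24 were marked as such or as overlapping another gene. The 42 became 6 without WT replicate 1, 13 and 9 without Sdc1_mut replicate 1 or 2, 4 without Jhd2_KO replicate 2, 9 and 19 without double-mutant replicate 1 or 2, and 65 without WT replicate 2. Of 30 translation factor genes, edgeR called 7 below (23.3%, against 12% of all genes) and 0 above (0 above at an unadjusted p under 0.05, 0 by DESeq2 and 0 by limma-trend). The median of this list was -0.29. The 7 became 3 without WT replicate 1, 3 without Sdc1_mut replicate 2, 4 without Jhd2_KO replicate 2 and 4 without double-mutant replicate 1.

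Mitochondrial ribosomal protein genes, which are nuclear, had 31 of 66 called below and 1 above, with a median of -0.55. The shares called were 47% and 1.52%, against 12% and 8.39% of all genes. Their list medians were -0.48 and -0.36 in the double mutant, -0.05 and 0.05 in Sdc1_mut, 0.19 and 0.10 in Jhd2_KO and -0.05 and 0.05 in WT, so the double mutant lay below the other 3 groups. MRPL50 had 19.0 and 20.2 CPM in the double mutant, 34.3 and 34.7 in Sdc1_mut, 28.6 and 22.2 in Jhd2_KO and 16.3 and 18.1 in WT. Unlike the list median, its double-mutant libraries lay above WT, and both single mutants lay higher still. MRPL23 had an interaction of -1.12. The 31 became 16 without WT replicate 1, 17 without Sdc1_mut replicate 2, 19 without either Jhd2_KO replicate and 16 without double-mutant replicate 1.

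The proteasome, which degrades ubiquitinated proteins, had 17 of 35 genes called below expectation (48.6%, against 12% of all genes). Its list median was -0.72 and -0.71 in the double mutant, -0.26 and -0.27 in Sdc1_mut, 0.12 and 0.13 in Jhd2_KO and -0.02 and 0.02 in WT. PRE8, a core particle subunit, had 115.1 and 121 CPM in the double mutant, 202 and 197 in Sdc1_mut, 230 and 227 in Jhd2_KO and 189 and 207 in WT (-0.96 ± 0.13, adjusted p 0.00063), and RPT5, an ATPase of the cap, had -0.87. The 1 list member above expectation was RPN4, the activator of proteasome genes, with 377 and 410 CPM in the double mutant, 195 and 175 in Sdc1_mut, 220 and 223 in Jhd2_KO and 181 and 199 in WT (0.87 ± 0.17, adjusted p 0.0046). RPN4 thus lay above expectation where 17 subunit genes lay below it. The Rpn4 site GGTGGCAAA stood in 27 of the 35 windows and 1.23% of all. The 17 became 10 without WT replicate 1, 8 without Sdc1_mut replicate 2 and 8 without Jhd2_KO replicate 2.

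Interaction values differed between classes of gene length. Over 500 bases, the median rose and the share called below fell with each longer class, whereas the shortest class broke this order. The median was -0.07 among 800 genes of up to 500 bases (8.38% below expectation and 7.5% above), -0.18 among 1509 genes of 500 to 1000 bases (19.9% and 6.76%), -0.04 among 2224 of 1000 to 2000 bases (14.1% and 10%), 0.04 among 799 of 2000 to 3000 bases (6.38% and 10.8%) and 0.08 among 502 genes over 3000 bases (2.59% and 8.37%). The median lengths were 795 bases for cytosolic and 706 for mitochondrial ribosomal protein genes, 864 for the proteasome, 1731 for branched-chain genes and 1842 for chaperones. With the trend of level on length taken out of each library, the counts called below were 28 for cytosolic ribosomal protein, 29 for mitochondrial ribosomal protein and 13 for proteasome genes, and those above were 12 for chaperone and 10 for branched-chain genes.

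Sterol synthesis and the entry into S phase were further lists with edgeR calls below expectation. Of 26 ergosterol genes, 14 were called below (53.8%, against 12% of all genes) and 0 above (1 above at an unadjusted p under 0.05, 0 by DESeq2 and 0 by limma-trend). Their median was -0.44. ERG13, the HMG-CoA synthase, had 208 and 192 CPM in the double mutant, 346 and 374 in Sdc1_mut, 263 and 270 in Jhd2_KO and 216 and 197 in WT (-1.22 ± 0.23, adjusted p 0.0037); ERG27 had -0.94 and ERG10 -0.90. Of 42 genes expressed in G1 and S phase, edgeR called 12 below (28.6%, against 12% of all genes) and 0 above (2 above at an unadjusted p under 0.05, 1 by DESeq2 and 0 by limma-trend). Their median was -0.33. MCM5, of the replicative helicase, had 62.9 and 58.2 CPM in the double mutant, 96.4 and 111 in Sdc1_mut, 121 and 113 in Jhd2_KO and 104.6 and 101 in WT (-0.96 ± 0.17). Ergosterol calls became 8 without Sdc1_mut replicate 2 and 9 without Jhd2_KO replicate 2, and the 12 of the cell cycle list became 6 without WT replicate 1 and 5 without Jhd2_KO replicate 2. Purine biosynthesis had 9 of 25 genes called below and 1 above (36% and 4%, against 12% and 8.39% of all genes). The 9 became 0 to 4 when any of the 8 libraries was left out. HXK2, the main hexokinase on glucose, had 755 and 733 CPM in the double mutant, 1716 and 1741 in Sdc1_mut, 1822 and 1929.8 in Jhd2_KO and 1996 and 1839 in WT (-1.18 ± 0.15, adjusted p 0.0005).

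**Figure D5:**
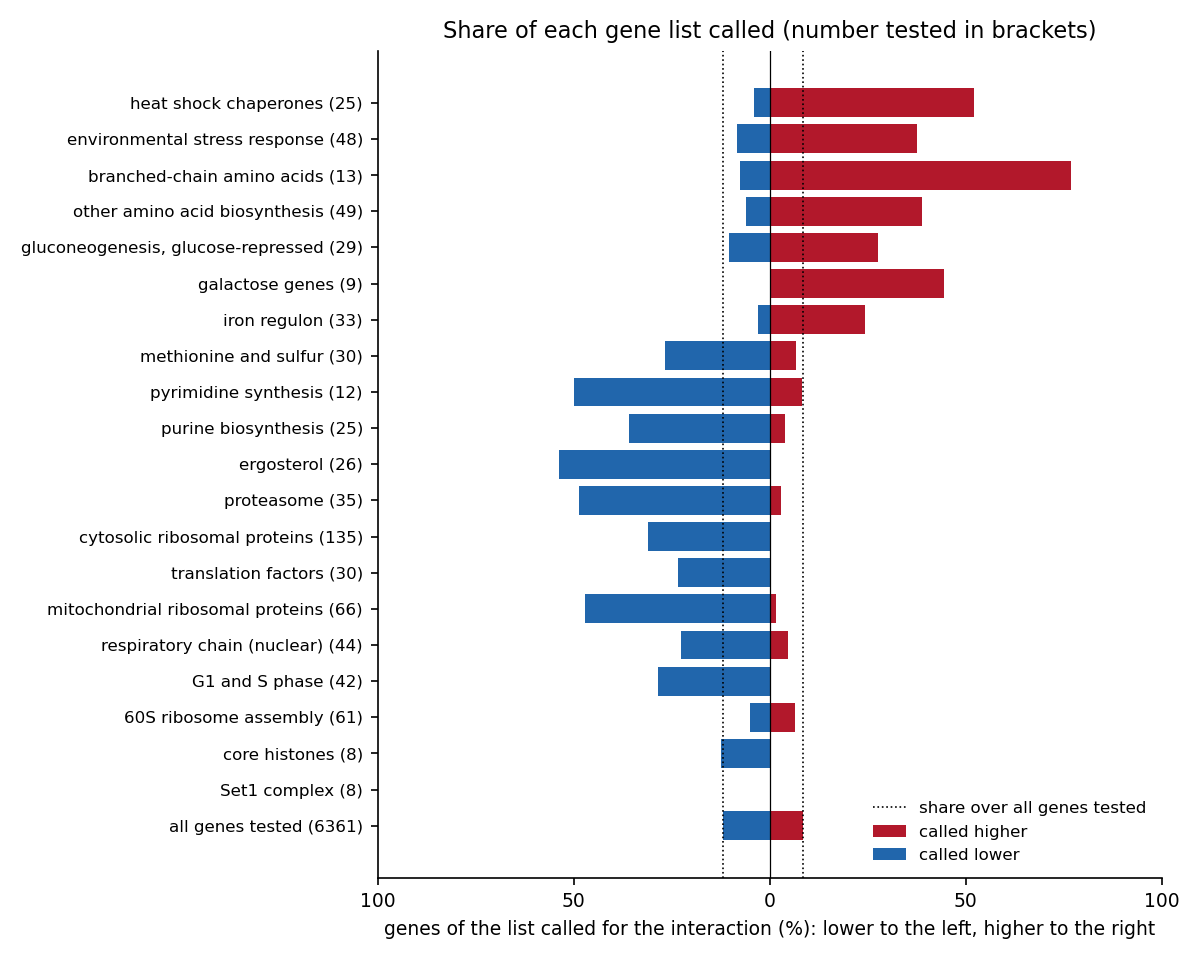
Percentage of the tested genes of 20 lists called for the interaction, with genes below the additive expectation drawn to the left and genes above it to the right of 0; dotted lines mark the shares over all 6361 genes (12% below and 8.39% above). Heat shock chaperones (13 of 25 above) and branched-chain amino acids (10 of 13 above) extend furthest to the right, and ergosterol (14 of 26 below) and pyrimidine synthesis (6 of 12 below) furthest to the left.

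Of the 8 genes of the complex that carries the mutation, edgeR called 0 for the interaction (2 at an unadjusted p under 0.05, 1 in each direction; 0 by DESeq2 and 0 by limma-trend), with SDC1 at 0.36 (adjusted p 0.14), SWD3 at -0.44 (0.14), SHG1 at -0.33 (0.43), SWD2 at -0.19 (0.53), SET1 at -0.05 (0.81), SPP1 at -0.01 (0.96), BRE2 at 0.03 (0.93) and SWD1 at 0.02 (0.95). SET1 had 84.1 and 84.8 CPM in the double mutant, 83.7 and 82.6 in Sdc1_mut, 61.3 and 59.9 in Jhd2_KO and 58.8 and 56.7 in WT. Both groups with the point mutation lay above both without it. SDC1 was called in 1 of 16 alternatives, at 0.51 with length trends removed (adjusted p 0.047). Of 8 core histone genes 1 was below expectation, near the 12% of all genes, but their median interaction was -0.45. Their JHD2 difference was called lower at 7 in the point mutant, where 19.4% of all genes were, and at 0 in the wild type. With the 8 libraries of the 2 by 2 design alone, 6 histone genes were among the 1231 called below. Ribosome assembly genes had a list median of Sdc1_mut over WT of 1.39 for 60S assembly and 1.29 for the small-subunit processome. Of 61 genes of 60S assembly, 4 were above and 3 below (6.56% and 4.92%). Among 51 of the small-subunit processome, 4 were above and 4 below (7.84% each). All of these shares lay under those of all genes, 8.39% and 12%. Each of these 4 counts lay between 0 and 7 when 1 library was left out. The median JHD2 difference of the 60S list was -0.44 in the point mutant and -0.50 in the wild type, and the median over its genes of the interaction was 0.10. Of 19 mitochondrially encoded RNAs tested in the list, edgeR called 0 (1 at an unadjusted p under 0.05, 0 by DESeq2 and 0 by limma-trend); with almost no fragments in either group carrying the point mutation, their interaction is not readable.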

How the data were processed

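Per the submitters' processing notes, reads were demultiplexed with bcl2fastq 2.17.1.14 and processed with TopHat and Cufflinks on sacCer3; the notes give no role or order for each tool, and strand and multiple-mapping settings are not given in the sources used here. The deposited values are the authors' estimated fragment counts per gene and library (expected counts; 97.8% of values are whole), which were rounded. Identifiers with status HIDATA (14) were left out.

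All 12 libraries, in 6 groups, were fitted together with edgeR 4.0.16 (R 4.3.3; TMM scaling, default expression filter, quasi-likelihood test, Benjamini-Hochberg adjustment over 6361 genes). The common biological coefficient of variation was 10.2%. Levels are CPM of the summed gene fragments; log2 levels of lists used a prior count of 2. Counting limits for 0 use 3 fragments and cover counting error only. Of 7112 identifiers, 6152 were matched to RefSeq R64, which gave coordinates and upstream windows; genes with a near-identical copy (blastn 2.17.0, identity of 95% or more across 50% or more of the gene), or sharing 10% or more of it with another gene, were marked.

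The comparison and the 55 gene lists were chosen with earlier results of these data known, and lists are described by counts and medians only. Named genes are SDC1, JHD2, the Set1 complex, the 15 largest called interactions in each direction (nuclear genes, mean of at least 5 CPM, same sign in all 16 combinations of libraries) and up to 4 called members a list; SSB1 and BAT2 were named after their values were seen. Alternatives were RLE scaling, DESeq2 1.42.0, limma-trend (limma 3.58.1), no filter, a replicate block, the 8 libraries alone, mitochondrial RNAs left out, each of the 8 libraries left out and, chosen after seeing the data, gene length trends removed. Tests were tried on simulated data first. There, 14% of simulated interactions of 0.5 on the log2 scale were recovered, 82% of those of 1 and 98% of those of 1.5. An interaction of about 0.5 or less could therefore easily go uncalled.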

Additional observations from a re-analysis of the deposited data

Results flagged for a closer look

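The results below stood out because the effect of deleting JHD2 differed between the point mutant and the wild type by the interaction test itself (edgeR's quasi-likelihood test, Benjamini-Hochberg adjusted p under 0.05 over 6361 genes). They comprise the count of all such genes, 1297, its parts of 534 genes above and 763 below the additive expectation, and the 15 largest interactions in each direction, given as log2 differences. No group had the 4 samples that a search for a single outlying library would need.

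Above expectation were SPG4 at 3.61, YER137W-A at 3.47, HSP30 at 3.30, HSP26 at 3.02, YER137C at 2.79, SLZ1 at 2.74, COS10 at 2.67, ATO2 at 2.67, YHR033W at 2.48, ACS1 at 2.46, YRO2 at 2.32, SPI1 at 2.26, ADY2 at 2.19, MPC3 at 2.19 and ATG41 at 2.14. Below it were YIR042C at -2.74, SEO1 at -2.38, RPR1 at -1.90, URA1 at -1.79, MET3 at -1.79, STE3 at -1.70, HBN1 at -1.68, CDA1 at -1.66, DUR12 at -1.66, GAP1 at -1.60, PES4 at -1.52, MET14 at -1.42, HXT11 at -1.41, LOH1 at -1.41 and MRPL50 at -1.37. YER137W-A and YER137C carry neighbouring systematic numbers, but the first had no match in the annotation used, so shared reads between them were not tested.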

How the results depend on the processing

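The 2 libraries a group, of which nothing shows that they are separate cultures, limit every call; leaving out a library leaves its group with 1, which is then assumed to vary like the other groups. The interaction count of 1297 (2200 at an unadjusted p under 0.05) was 1212 with RLE scaling, 1261 with DESeq2, 1336 with limma-trend, 1283 with no expression filter, 1306 without mitochondrial RNAs and 1293 with gene length trends removed, a setting chosen after seeing the data. With only the 8 libraries of the 2 by 2 design it was 2130, of which 899 were higher and 1231 lower, and called list genes were 624 against 384. In no setting did a gene called in both turn its direction, and 27 to 30 of the 30 ranked genes were called. The settings share libraries, so a kept direction is no separate support. The 104 genes of the JHD2 deletion in the wild type became 273 with DESeq2, 164 with the replicate block and 689 with the 8 libraries. Leaving out 1 library gave 580 to 1068 for the interaction, 256 to 430 higher, 324 to 638 lower, 1100 to 1949 for the JHD2 deletion in the point mutant, 5 to 50 in the wild type, 504 to 945 for interaction genes called in the point mutant alone and 177 to 350 for list genes. SPP1, at -0.01, became 0.028 with RLE scaling, 0.028 with DESeq2 and 0.10 with length trends removed; without 1 library it was -0.11 to 0.074, SWD1 -0.052 to 0.097 and BRE2 -0.056 to 0.10. None of these values was called, and the cause was not tested. Replicate numbers did not pair the samples: differences between replicates 1 and 2 correlated at -0.13 to 0.16 between groups. With the replicate block the interaction count was 1379. Cytosolic ribosomal protein genes below expectation, 42, became 66 with the replicate block and 83 with the 8 libraries. When 1 library was left out, the counts of chaperone, branched-chain and other amino acid genes above and of pyrimidine and sulfur genes below stayed within 1.5 times.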

Other observations

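Nutrient transport held further genes above the additive expectation. PHO84, the high-affinity phosphate transporter, had 156 and 139 CPM in the double mutant, 60.6 and 66.4 in Sdc1_mut, 46.1 and 55 in Jhd2_KO and 54.0 and 50.8 in WT (interaction 1.26 ± 0.20, adjusted p 0.0016). Only the double mutant stood apart. PHO89, which couples phosphate uptake to sodium, had 78.5 and 94.2 CPM in the double mutant, 27.9 and 35.8 in Sdc1_mut, 10.2 and 9.11 in Jhd2_KO and 7.68 and 7.58 in WT (1.10 ± 0.21, adjusted p 0.0044), so its groups stood in 4 steps that did not overlap. In the whole phosphate list, 5 of 26 genes were called above and 5 below, 19.2% each, against 8.39% and 12% of all genes. Its median interaction was -0.05. The calls below were less firm than those above when 1 library was left out. MTH1, a repressor of hexose transporter genes, had 619 and 653 CPM in the double mutant, 259 and 258 in Sdc1_mut, 263 and 246 in Jhd2_KO and 291 and 265 in WT (1.42 ± 0.23, adjusted p 0.0017). Among galactose genes the share called above was 44.4%, against 8.39% of all genes. Of 9 galactose genes, 4 were called above, which became 1 without Sdc1_mut replicate 2 and 2 without Jhd2_KO replicate 2.

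The iron regulon had 8 of 33 genes called above and 1 below (24.2% and 3.03%, against 8.39% and 12% of all genes). The 8 became 4 without Sdc1_mut replicate 2, 3 without Jhd2_KO replicate 2 and 5 without double-mutant replicate 1. The member below was SIT1, a transporter of iron bound to ferrioxamine, with 43.0 and 39.1 CPM in the double mutant, 111 and 122 in Sdc1_mut, 6.94 and 7.95 in Jhd2_KO and 8.63 and 8.84 in WT (-1.29 ± 0.19, adjusted p 0.0013). In the cell wall list, GSC2, an alternative catalytic subunit of glucan synthase, had 2097 and 1698 CPM in the double mutant, 816 and 714 in Sdc1_mut, 329.9 and 294 in Jhd2_KO and 455 and 405 in WT (1.77 ± 0.22, adjusted p 0.00043). Of 13 genes of H2B ubiquitination, the Paf1 complex and other histone methyltransferases, 1 was called above and 1 below. At 7.69% each, these shares lay under the 8.39% and 12% of all genes. LGE1, the member above, which acts with Bre1 in the ubiquitination of histone H2B, had 184 and 192 CPM in the double mutant, 91.1 and 96.2 in Sdc1_mut, 109 and 97.3 in Jhd2_KO and 124 and 123 in WT (1.27 ± 0.14, adjusted p 0.00025), where both single mutants lay below WT and the double mutant above it. The member below was BRE1 itself, the ubiquitin ligase, with 95.5 and 98.5 CPM in the double mutant, 109 and 113 in Sdc1_mut, 106 and 109.7 in Jhd2_KO and 90.0 and 97.9 in WT (-0.40 ± 0.13, adjusted p 0.042). That call was lost with RLE scaling, with DESeq2 and without any of 7 of the 8 libraries, all but WT replicate 2, with adjusted p up to 0.152.

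At 15 genes the JHD2 difference was called in both backgrounds together with the interaction. Beside CPA1, SEO1 and HBN1, 9 changed in opposite directions: MIH1, AIF1 and GPD2 were higher in the double mutant than in Sdc1_mut and lower in Jhd2_KO than in WT, and CYS3, MXR1, MHT1, ODC1, YJR149W and YLR232W the reverse. These names were chosen after their values were seen. MIH1, the phosphatase that counteracts Swe1 at mitotic entry, had 62.6 and 60.5 CPM in the double mutant, 41.2 and 40.4 in Sdc1_mut, 20.5 and 19.8 in Jhd2_KO and 31.4 and 29.5 in WT (1.19 ± 0.13, adjusted p 0.00028). ODC1, a mitochondrial oxodicarboxylate carrier, had 37.7 and 44.1 CPM in the double mutant, 58.3 and 55.1 in Sdc1_mut, 101 and 91.4 in Jhd2_KO and 62.99 and 63.6 in WT (-1.07 ± 0.14, adjusted p 0.00061). SNZ1, of vitamin B6 synthesis, was one of the 3 that changed in the same direction in both backgrounds, with 168 and 209 CPM in the double mutant, 48.0 and 45.8 in Sdc1_mut, 29.8 and 28.4 in Jhd2_KO and 16.9 and 18.0 in WT. Its JHD2 difference was 2.01 in the point mutant and 0.74 in the wild type (interaction 1.27 ± 0.17, adjusted p 0.00066).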
